A study of Mus musculus with 4 samples.

Results

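MYC and the proteins that share its partner MAX form a network of basic helix-loop-helix leucine zipper factors. MYC, MYCN and MYCL bind DNA as heterodimers with MAX at E-boxes, above all the sequence CACGTG, and activate genes for growth and ribosome production, while MXD proteins, MNT and MGA compete for MAX and recruit repressors to like sites. In mouse embryonic stem cells, Myc and Mycn sustain proliferation and self-renewal, and Mga and Max keep germ cell genes silent. The 10 genes described here, Myc, Mycn, Mycl, Max, Mxd1, Mxd3, Mxd4, Mnt, Mga and Mlx, were taken by an exact match of their symbols among the 53379 gene identifiers of the files. All 10 were found, each once, and all 10 were among the 19148 genes with enough counts to be tested.

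The cells were DKO741, 1 line of mouse embryonic stem cells (mESCs) made from E14 mESCs by replacing both alleles of Terc, the telomerase RNA gene, so both groups are Terc-/-. The neo marker of the first targeting was removed with Cre recombinase, delivered by an adenovirus. PD100 is the culture at population doubling 100, before the alternative lengthening of telomeres (ALT), and PD800 is the survivor culture at population doubling 800, which maintains its telomeres by ALT. Each group had 2 libraries of bulk RNA, and the cells were grown on mouse embryonic fibroblasts for stocks but harvested without them. Since both groups come from 1 line, any change fixed in that line during culture cannot be told apart from the passage to ALT, and p-values measure the spread between these libraries. The study's methods call the replicates biological duplicates, while neither they nor the labels say whether these were separate cultures.

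The 4 libraries held 32454121 to 38492149 expected counts, the number of read pairs that RSEM assigned to genes. A level is given below in CPM (counts scaled to a common library size with edgeR's TMM factors) or in TPM, which is also scaled for transcript length, and only TPM levels are compared between genes. A count of 3, the floor under which a gene was treated as not detected, was worth 0.0743 to 0.0934 CPM, and it covers counting error only. Terc had a count of 1 in PD100 replicate 1 and 0 in the other libraries. Mitochondrial genes took 11.0% to 15.4% of the counts in PD100 and 16.0% to 17.7% in PD800. The log2 CPM of the tested genes correlated at 0.992 between PD100 replicates and 0.997 between PD800 replicates, against 0.955 to 0.961 between groups, a description over genes that share libraries. Among markers of the labelled cell type, 8 of 8 genes of pluripotent cells were detected and 3 of 8 were called higher in PD800 (Nanog, Esrrb and Klf4), with a summed level of 1463 and 1772 TPM in PD100 and 2127 and 2174 TPM in PD800. Most markers of other cells fell. All 7 primitive endoderm genes were called lower, with a summed level of 33.2 to 41.5 TPM in PD100 and 2.15 to 2.26 TPM in PD800, where Foxa2 lay under the floor. Of 9 fibroblast genes, 8 were tested and 5 were called lower, with a summed level of 13.6 to 13.7 TPM in PD100 and 4.06 to 4.18 TPM in PD800, and Fap had at most 5 counts in any library. In bulk RNA, fewer cells of a type and less RNA per cell cannot be told apart, and the part of these markers in the results below was not tested.

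The E-box core CACGTG, its own reverse complement, was searched in the 300 bases around each member's start site (250 before, 50 after), as given by RefSeq for GRCm38.p6. A window was at hand for 9 of the 10 members, all but Myc, and 4 of the 9 held the motif once, while 2349 of 32851 promoters of the same length (7.15%) held it. These 4 windows are shown because they place a site that the network's proteins can bind beside the start of a network gene. Each is written 5′ to 3′ on the strand of its gene, with CACGTG in capitals. In Max the motif begins 3 bases before the start site, in Mlx 40, in Mnt 123 and in Mxd4 219.
Max, chr12:76962199-76962498 (minus strand): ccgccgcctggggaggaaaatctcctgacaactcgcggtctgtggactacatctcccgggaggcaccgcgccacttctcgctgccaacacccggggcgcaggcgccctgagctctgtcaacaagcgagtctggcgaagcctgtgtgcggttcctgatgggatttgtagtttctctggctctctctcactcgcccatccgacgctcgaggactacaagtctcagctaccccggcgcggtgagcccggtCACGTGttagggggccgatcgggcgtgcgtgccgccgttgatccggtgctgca
Mlx, chr11:101087040-101087339 (plus strand): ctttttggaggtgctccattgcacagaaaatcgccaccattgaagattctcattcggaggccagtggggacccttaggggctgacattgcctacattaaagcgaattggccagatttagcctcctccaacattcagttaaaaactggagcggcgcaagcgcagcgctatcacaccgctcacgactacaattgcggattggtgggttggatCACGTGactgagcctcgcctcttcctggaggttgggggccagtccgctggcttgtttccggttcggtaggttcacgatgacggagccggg
Mnt, chr11:74830674-74830973 (plus strand): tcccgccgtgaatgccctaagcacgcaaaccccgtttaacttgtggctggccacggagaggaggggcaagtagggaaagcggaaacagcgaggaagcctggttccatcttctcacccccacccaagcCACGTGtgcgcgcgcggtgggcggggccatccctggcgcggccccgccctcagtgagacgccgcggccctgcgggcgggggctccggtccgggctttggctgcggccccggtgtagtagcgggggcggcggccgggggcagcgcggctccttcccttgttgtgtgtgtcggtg
Mxd4, chr5:34187661-34187960 (minus strand): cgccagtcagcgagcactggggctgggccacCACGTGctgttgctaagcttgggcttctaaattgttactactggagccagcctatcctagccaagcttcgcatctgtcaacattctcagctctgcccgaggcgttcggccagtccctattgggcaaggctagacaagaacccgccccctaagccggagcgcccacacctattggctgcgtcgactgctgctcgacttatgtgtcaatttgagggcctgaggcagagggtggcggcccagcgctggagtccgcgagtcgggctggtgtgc
The windows of Mycn, Mycl, Mxd1, Mxd3 and Mga held no CACGTG, which says only that these letters are not in these windows. A match is a description and no proof of binding.

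Against PD100, Myc, Mycn and 2 of the MAX partners that recruit repressors (Mxd4 and Mnt) were lower in PD800, while Max itself was higher. Calls needed an adjusted p under 0.01 (edgeR's quasi-likelihood test, Benjamini-Hochberg over all tested genes) together with a fold change over 2. Myc and Mxd4 were called lower, 2 of 10 members, where 8.81% of all tested genes were called lower. None of the 10 was called higher, where 6.28% of all tested genes were. By the adjusted p alone, 4 members were lower (Myc, Mycn, Mxd4 and Mnt), beside 15.4% of all genes, and 1 was higher (Max), beside 13.1%. The other 5 did not pass. The median log2 fold change of the members was -0.26, and that of all tested genes was 0.01. With 10 members and 2 libraries a group, these shares are a description of the members.

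**Figure D1:**
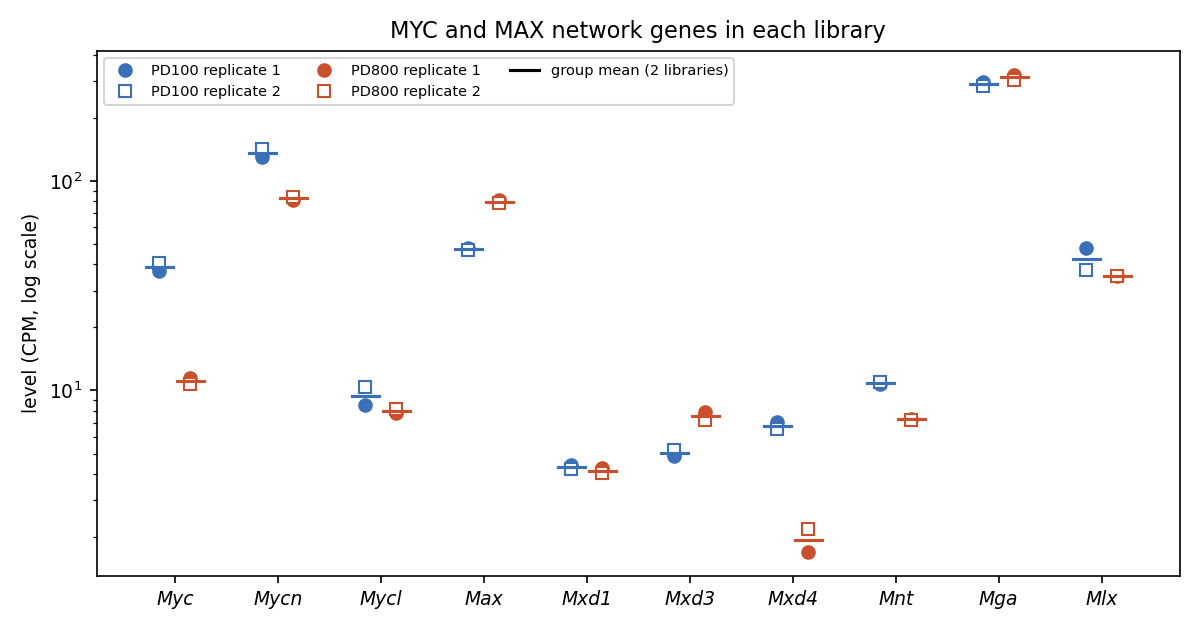
CPM of each of the 10 members in each library (points, log axis), with PD100 and PD800 side by side and the mean of the 2 libraries of each group as a line. The points of Myc fall from 37.3 and 40.5 to 11.5 and 10.8 CPM, those of Mxd4 from 7.06 and 6.53 to 1.70 and 2.18 CPM, and those of Max rise from 47.6 and 46.7 to 81.4 and 78.2 CPM.

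Myc (ENSMUSG00000022346.15, chr15:61985391-61990374, plus strand, GRCm38) encodes c-MYC, the founding member of the family. Its level was 37.3 and 40.5 CPM in PD100 replicates 1 and 2, and 11.5 and 10.8 CPM in the PD800 replicates. Both PD800 libraries lay far under both PD100 libraries. The mean was 38.9 ± 2.25 CPM in PD100 and 11.1 ± 0.491 CPM in PD800 (SD, n = 2), a 3.50-fold drop. On the log2 scale this was a change of -1.81 (SE 0.09, adjusted p = 7.99e-05 by edgeR). The change stayed past the threshold without any 1 of the 4 libraries, with log2 fold changes from -1.86 to -1.76.

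Mycn (ENSMUSG00000037169.15, chr12:12936093-12941914, minus strand) encodes N-MYC, the family member most abundant in these cells at both times. It stood at 130.7 and 142.5 CPM in PD100 and at 81.5 and 83.9 CPM in PD800. The groups did not overlap, and the drop was smaller than that of Myc: 1.65-fold, or -0.72 on the log2 scale (SE 0.08, adjusted p = 0.000941 by edgeR). Without PD800 replicate 1 or without PD800 replicate 2, Mycn no longer passed (adjusted p of 0.0162 and 0.0111 by edgeR, log2 fold changes of -0.70 and -0.74). Mycl (ENSMUSG00000028654.13, chr4:122995652-123002485, plus strand), which encodes L-MYC, was low, at 8.50 and 10.4 CPM in PD100 and 7.82 and 8.12 CPM in PD800. The PD800 values lay just under those of PD100, and the change of -0.24 (95% interval -0.56 to 0.08) did not pass (adjusted p = 0.181 by edgeR). It was -0.38 without PD100 replicate 1 (adjusted p = 0.0174) and -0.11 without PD100 replicate 2 (0.460), and limma gave -0.37 and -0.53 on the TPM scales (0.0900 and 0.0860).

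Added up per transcript length, Myc, Mycn and Mycl reached 59.7 and 59.0 TPM in PD100 and 27.9 and 27.0 TPM in PD800. The mean was 2.16-fold lower in PD800, or 2.01-fold lower from counts with each gene's length held fixed over the libraries. The TPM of all tested genes shifted too, with a median change of -0.12 on log2(TPM + 1) and -0.21 on log2(TPM + 0.1). The makeup of the family differed as well. Myc gave 24.4% and 24.2% of the family's summed TPM in PD100 and 13.5% and 12.9% in PD800. Mycn gave 72.2% and 71.3% in PD100 and 80.7% and 81.3% in PD800, and Mycl gave 3.44% and 4.53% in PD100 and 5.80% and 5.78% in PD800, although its own level was not higher there. For each Mycn transcript there were 0.338 and 0.339 of Myc in PD100, against 0.167 and 0.159 in PD800. These sums and shares are given as values and were not tested.

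Max (ENSMUSG00000059436.13, chr12:76937269-76962201, minus strand) encodes the shared partner with which the MYC, MXD, MNT and MGA proteins bind DNA. Its level was 47.6 and 46.7 CPM in PD100 and 81.4 and 78.2 CPM in PD800. Both PD800 libraries were above both PD100 libraries, and the mean rose 1.69-fold, from 47.1 ± 0.700 to 79.8 ± 2.26 CPM (SD, n = 2). The log2 fold change was 0.76 (SE 0.07, adjusted p = 0.000596 by edgeR), short of the fold of 2 that a call needs. Without PD800 replicate 1 the adjusted p of Max was 0.0111, and on log2(TPM + 1) and log2(TPM + 0.1) limma gave 0.48 and 0.49 with adjusted p of 0.0516 and 0.0515. In TPM, Max was 25.6 and 20.5 in PD100 and 34.4 and 30.3 in PD800, so the groups did not overlap on that scale either. Max overlaps Gm47218, a little-counted gene model on its own strand (46 to 125 expected counts per library), so that reads there cannot be told apart.

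With the family lower and Max higher, the ratio of Max to the summed MYC family in TPM went from 0.429 and 0.348 in PD100 to 1.23 and 1.12 in PD800. Transcripts of the 3 MYC genes outnumbered those of Max in both PD100 libraries, and those of Max outnumbered theirs in both PD800 libraries. The plot of network sums and ratios shows both shifts.

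**Figure D2:**
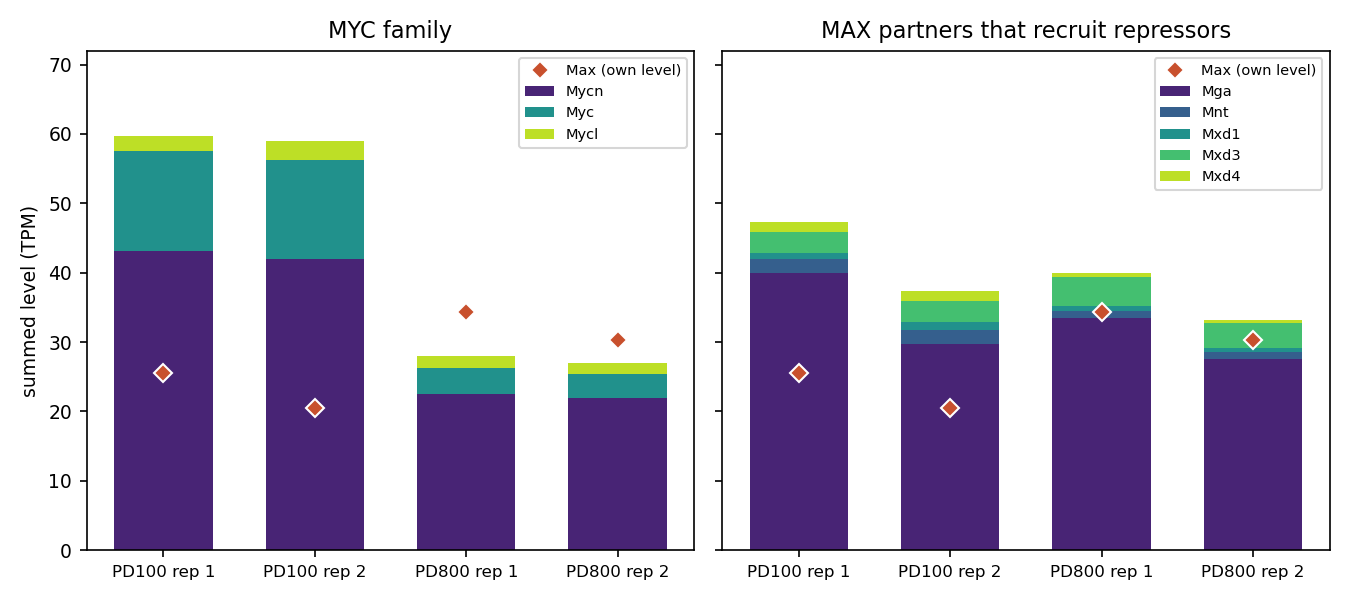
TPM of the MYC family (left, stacked bars of Mycn, Myc and Mycl) and of the MAX partners that recruit repressors (right, Mga, Mnt, Mxd1, Mxd3 and Mxd4) in each library, with Max as a diamond in both panels. Max lies inside the family bars of 59.7 and 59.0 TPM in PD100 and above the bars of 27.9 and 27.0 TPM in PD800, while the bars on the right overlap between groups and are mostly Mga.

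Mxd1, Mxd3 and Mxd4 encode MXD proteins, small MAX partners that bring the SIN3 corepressor to E-boxes. Mxd4 (ENSMUSG00000037235.13, chr5:34173883-34187720, minus strand) was at 7.06 and 6.53 CPM in PD100 and at 1.70 and 2.18 CPM in PD800. Every PD800 value lay under every PD100 value, and all were far above the floor. The mean fell 3.51-fold and the log2 fold change was -1.81 (SE 0.18, adjusted p = 0.000617 by edgeR), a point estimate like that of Myc from far fewer counts. It stayed past the threshold without any 1 library, with log2 fold changes from -2.00 to -1.64. On log2(TPM + 1) limma gave -0.74, under the fold of 2, a scale on which the change of a gene at 0.440 to 1.51 TPM is understated.

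Mxd3 (ENSMUSG00000021485.14, chr13:55325168-55329823, minus strand) had higher values in PD800. It was at 4.86 and 5.18 CPM in PD100 and at 7.90 and 7.22 CPM in PD800. The groups did not overlap, but the log2 fold change of 0.59 (95% interval 0.29 to 0.90) just missed the threshold (adjusted p = 0.0110 by edgeR). It passed without PD100 replicate 1 (adjusted p = 0.00743) and without PD100 replicate 2 (adjusted p = 0.00338), both by edgeR. Without PD800 replicate 1 its adjusted p was 0.117 and without PD800 replicate 2 it was 0.0495, and limma gave 0.124 on log2(TPM + 1) and 0.110 on log2(TPM + 0.1). Mxd3 overlaps Prelid1, a far more abundant gene on the opposite strand (5806 to 6310 expected counts per library), and whether the counting used strand is not given in the sources used here. Mxd1 (ENSMUSG00000001156.9, chr6:86647042-86669161, minus strand) was at 4.41 and 4.22 CPM in PD100 and 4.26 and 4.02 CPM in PD800. Its groups overlapped in CPM, and the change of -0.06 (95% interval -0.41 to 0.28) did not pass (adjusted p = 0.752 by edgeR). In TPM they did not overlap, at 0.89 and 1.04 in PD100 and 0.67 and 0.59 in PD800, and limma gave -0.27 and -0.54 on the TPM scales (adjusted p of 0.0621 and 0.0833). Of the 3 MXD genes, Mxd4 passed the test and Mxd3 and Mxd1 did not, and the intervals of Mxd4 and Mxd3 do not meet.

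Mnt (ENSMUSG00000000282.12, chr11:74830920-74845725, plus strand) encodes a widely expressed MAX partner that also works through SIN3 and antagonises MYC. It was at 10.7 and 11.0 CPM in PD100 and at 7.32 and 7.25 CPM in PD800. The replicates were close and the groups did not overlap, and the log2 fold change was -0.57 (SE 0.10, adjusted p = 0.00479 by edgeR), 1.49-fold lower. Without PD800 replicate 1 the adjusted p of Mnt was 0.0517, and without PD800 replicate 2 it was 0.0479. Limma on log2(TPM + 1) and log2(TPM + 0.1) gave -0.59 and -0.93, with adjusted p of 0.0110 and 0.0123.

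Mga (ENSMUSG00000033943.15, chr2:119897228-119969581, plus strand) encodes a large protein that pairs with MAX inside the Polycomb complex PRC1.6. It had the most counts of all members, at 296.5 and 284.6 CPM in PD100 and 322.1 and 302.5 CPM in PD800. The PD800 values were slightly higher, and the change of 0.10 (95% interval -0.09 to 0.30) did not pass (adjusted p = 0.334 by edgeR). In TPM the groups overlapped, at 39.9 and 29.8 in PD100 and 33.5 and 27.6 in PD800, and limma gave -0.18 on both TPM scales, so the sign for Mga depended on the scaling. Measured from the median of all genes on those scales (-0.12 and -0.21), Mga lay at -0.06 and 0.03. Mlx (ENSMUSG00000017801.15, chr11:101087277-101092207, plus strand) encodes MLX, a MAX-like protein that pairs with MXD1, MXD4 and MNT and with the glucose-sensing MondoA and ChREBP. It was at 47.7 and 37.5 CPM in PD100 and at 35.2 and 35.0 CPM in PD800. PD100 replicate 1 stood well above the other libraries, and the change of -0.28 (95% interval -0.58 to 0.02) did not pass (adjusted p = 0.117 by edgeR). Without PD100 replicate 2, Mlx changed by -0.46 and passed (adjusted p = 0.000108 by edgeR), and without PD100 replicate 1 it changed by -0.091 (adjusted p = 0.302). Mlx overlaps Psmc3ip on the opposite strand (579 to 699 expected counts per library).

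**Figure D3:**
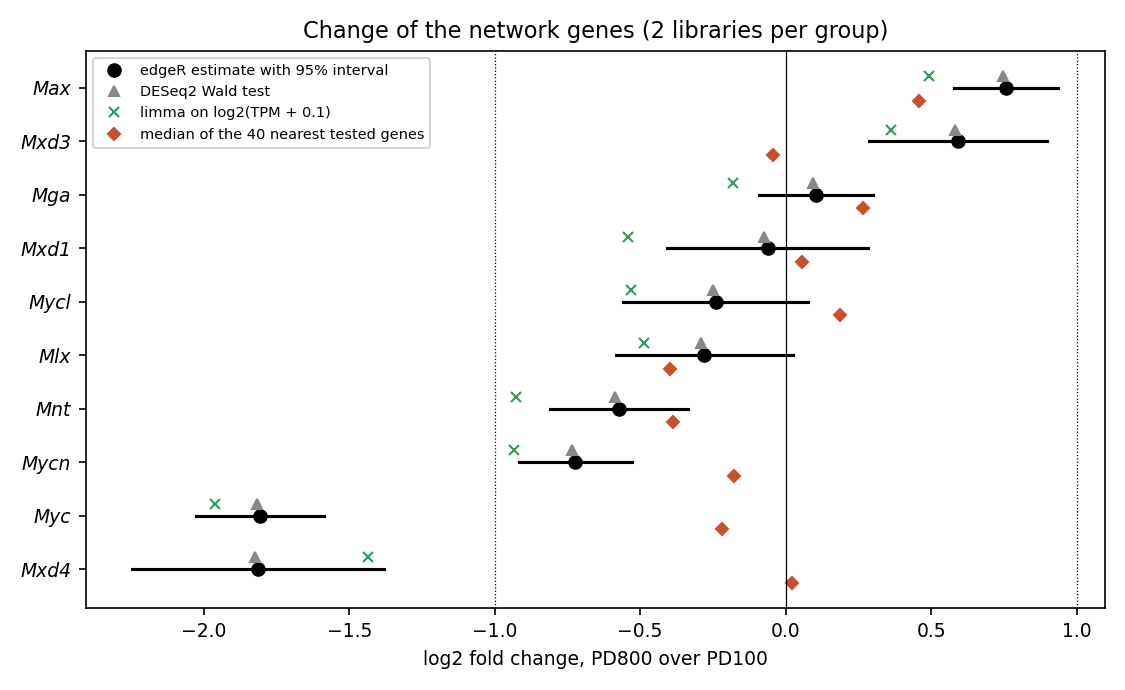
Log2 fold change of each member, PD800 over PD100, from edgeR (black points) with its 95% interval (bars), beside DESeq2 (triangles), limma on log2(TPM + 0.1) (crosses) and the median of the 40 nearest tested genes (diamonds), with dotted lines at a fold of 2. Myc and Mxd4 sit near -1.81 with intervals beyond -1, Max at 0.76 lies above 0, and the intervals of Mycl, Mxd1, Mga and Mlx cross 0.

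Summed over Mxd1, Mxd3, Mxd4, Mnt and Mga, the MAX partners that recruit repressors reached 47.4 and 37.4 TPM in PD100 and 39.96 and 33.2 TPM in PD800. The groups overlapped, and Mga gave 79.6% to 84.2% of the sum in every library. Without Mga the sum was 7.47 and 7.61 TPM in PD100 and 6.51 and 5.69 TPM in PD800, without overlap. In mean, PD800 stood at 0.809 times PD100 in TPM and at 0.887 times from counts with fixed transcript lengths. Neither scale used the TMM factors. The summed MYC family stood at 1.26 and 1.58 times the sum of the 5 repressor partners in PD100, and at 0.699 and 0.812 times in PD800. The MYC family was thus the larger sum in both PD100 libraries and the smaller in both PD800 libraries. Mxi1, which encodes a further MXD protein and is not among the members, is in none of these sums. It stood at 4.26 and 3.68 TPM in PD100 and at 1.81 and 1.62 TPM in PD800.

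In order of TPM, the PD100 libraries had Mycn first (mean 42.5), then Mga, Mlx and Max, Myc, Mxd3, Mycl and Mnt, Mxd4 and Mxd1 (mean 0.965). Of neighbours in that order, the library values of Mlx and Max overlapped, as did those of Mycl and Mnt. In PD800 the order was Max (mean 32.4), Mga, Mycn, Mlx, Mxd3, Myc, Mycl, Mnt, Mxd1 and Mxd4 (mean 0.485), with overlap between Max and Mga and between Mxd3 and Myc. Mycn passed from the first place to the third, Max from the fourth to the first, and Myc came down to the level of Mxd3.

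RSEM also gives, for each gene and library, a transcript length weighted by the abundance of the gene's annotated transcripts, which shows whether long or short transcripts were favoured. For Mnt, which has 3 annotated transcripts, the length was 4244 and 3927 bases in PD100 and 4590 bases in both PD800 libraries, the length of its longest transcript. TPM divides by this length, and Mnt stood at 2.04 and 2.05 TPM in PD100 and 1.06 and 1.00 TPM in PD800, a wider relative gap than in CPM. The median of all tested genes shifted as well, by -0.12 on log2(TPM + 1) and -0.21 on log2(TPM + 0.1). The part of length in the wider gap was not tested. For Mxd4, with 4 annotated transcripts of 787 to 4627 bases, it was 3951 and 3192 bases in PD100 and 2229 and 3135 bases in PD800. These values are estimates, and the PD800 libraries of Mxd4 differed from each other by more than PD100 replicate 2 did from PD800 replicate 2. Mxd1 was at 4002 and 3004 bases in PD100 and 4230 and 4337 bases in PD800. Myc moved little, from 2162 and 2148 bases to 2120 and 2039 bases, and Mycn from 2525 and 2536 to 2490 and 2489 bases. For these 5 of 10 genes the groups did not overlap, and for Mycl, Max, Mxd3, Mga and Mlx they did. Of the 13295 tested genes with more than 1 annotated transcript, 34.6% had lengths that did not overlap between groups. No test was made of the lengths.

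**Figure D4:**
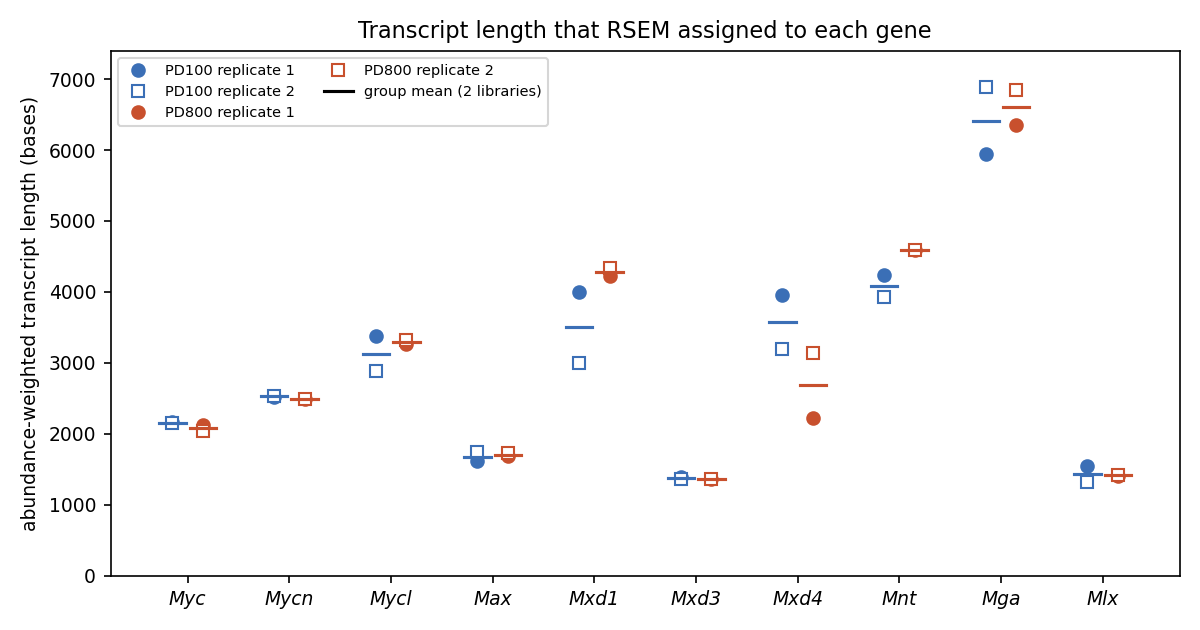
Abundance-weighted transcript length of each member in each library (points, in bases), with the mean of each group as a line. Mnt sits at 4590 bases in both PD800 libraries, above both PD100 libraries, and PD800 replicate 1 of Mxd4 lies at 2229 bases, apart from the other 3 libraries.

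The 40 tested genes nearest to each member on its chromosome were taken as a local reference, as a description. Around Max their median log2 fold change was 0.46, so that Max lay 0.30 above its neighbours. Around Mnt the median of the neighbours was -0.39, and Mnt lay -0.19 from it. Mlx, on the same chromosome, had neighbours at -0.40, and Mga had neighbours at 0.26. The neighbours of Myc (-0.22), Mycn (-0.18) and Mxd4 (0.02) lay much nearer to 0 than the genes themselves. Whether DNA copy number differs at these places was not tested. Pvt1, the noncoding gene next to Myc, was at 20.0 and 23.4 CPM in PD100 and 23.3 and 21.04 CPM in PD800, and did not pass (log2 fold change 0.03, adjusted p = 0.840 by edgeR).

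The other genes of the pathway were taken in lists with 105 genes, all of which were tested, and each list's calls are to be read against the 6.28% of all tested genes called higher and the 8.81% called lower. Mxi1, which encodes a further MXD protein, was lower in PD800, at 26.8 and 25.7 CPM in PD100 against 13.7 and 13.0 CPM in PD800 (log2 fold change -0.97, adjusted p = 0.000417 by edgeR), just short of a fold of 2, which it exceeded without PD100 replicate 2 (-1.02), without PD800 replicate 1 (-1.01) and by limma on log2(TPM + 0.1) (-1.16). Mlxipl, which encodes ChREBP, was called lower (-1.23, adjusted p = 0.00753 by edgeR), from 4.58 and 3.24 to 1.75 and 1.59 CPM. That call was lost without PD100 replicate 1 (-0.95), PD800 replicate 1 (adjusted p = 0.0278) or PD800 replicate 2 (adjusted p = 0.0383), and by limma on the TPM scales (adjusted p of 0.0463 and 0.0400). Mlxip, which encodes MondoA, did not pass (0.06, adjusted p = 0.660 by edgeR). Among the 5 genes of the list of Mxi1 and the MLX branch, 1 was called lower and none higher, and the median log2 fold change was 0.06.

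Of 10 partners of MGA and MAX in PRC1.6, 1 was called higher and none lower, with a median of 0.08. The called gene was Wdr5, which encodes a WD40 protein of several chromatin complexes and binds MYC too, at 105.2 and 112.2 CPM in PD100 and 219.2 and 221.7 CPM in PD800 (log2 fold change 1.02, adjusted p = 0.00024 by edgeR). It lay close to the fold of 2, and without PD100 replicate 1 its log2 fold change was 0.98. By limma on the TPM scales it was 0.74 and 0.76, so that no gene of the list was called there. Of 13 germ cell genes known to be repressed through MAX, MGA and PRC1.6, 3 were called higher and 1 lower, Mael was higher by the adjusted p alone (0.95), and 8 did not pass, with a median of 0.19, where 6.28% of all tested genes were called higher and 8.81% lower. Dazl, which encodes an RNA-binding protein of germ cells, was at 2.06 and 1.86 CPM in PD100 and 10.1 and 9.71 CPM in PD800 (2.34, adjusted p = 0.000118 by edgeR). Taf7l, a germ cell relative of a TFIID subunit, rose by 1.94 (adjusted p = 0.000456 by edgeR), and the third, Stag3, a meiotic cohesin subunit named after its value was seen, rose by 1.21 (adjusted p = 0.000259 by edgeR). On both TPM scales limma did not call Stag3 (adjusted p of 0.0289 and 0.0292), which left 2 genes of the list called higher. Without PD100 replicate 1, Mael was called too (1.17), which made 4. Tdrkh, a Tudor protein of the piRNA pathway, changed by -1.05 (adjusted p = 0.00458 by edgeR), a call lost without PD100 replicate 2 (-0.91), PD800 replicate 1 (adjusted p = 0.0155) or PD800 replicate 2 (adjusted p = 0.0287), and by limma on log2(TPM + 1), at -0.79. Tex101 was called lower without the expression filter (adjusted p = 0.000169 by edgeR), beside Tdrkh, and without PD100 replicate 2 (0.00652), where Tdrkh was not.

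Of 16 subunits of the SIN3 corepressor, edgeR called none, while limma called Sin3b lower on both TPM scales (-1.14 and -1.15). By the adjusted p alone, 3 were lower (Sin3b at -0.90, Hdac2 at -0.70 and Sap18 at -0.57, named after their values were seen) and none higher, with a median of -0.12, where 15.4% of all tested genes were lower and 13.1% higher. With single libraries left out these counts moved in both directions, as did the shares of all tested genes. Without the expression filter, 6 were lower and 1 higher, where 13.6% of all tested genes were lower and 12.3% higher. The histone chaperones Rbbp4 and Rbbp7, the subunits with the most counts, were at 0.16 and -0.36 by edgeR and did not pass. Rbbp7 did pass with DESeq2 (adjusted p = 0.00416), with limma on both TPM scales (0.00661 and 0.00672), without the expression filter, and without either PD100 library. Of 15 genes for MYC coactivators and for MIZ1, a zinc finger partner of MYC in repression, edgeR called none, 2 were higher and 1 lower by the adjusted p alone, and the median was 0.14. Here too the counts moved with single libraries left out, as did the shares of all tested genes. On both TPM scales limma gave 0 higher and 2 lower. Of all tested genes, 3.72% and 3.69% were higher and 12.15% and 12.59% lower on log2(TPM + 1) and log2(TPM + 0.1). On log2(TPM + 0.1) limma called Epc1 lower (-1.07). Those with the most counts, which also grow with transcript length, were Ruvbl2, an ATPase of the TIP60 and INO80 complexes, and Bptf, a NURF subunit, at 0.04 and 0.09 by edgeR. Of 13 genes of MYC protein turnover, Aurka was called higher (1.28, adjusted p = 0.000172 by edgeR) and Usp28 lower (-1.16, adjusted p = 0.000208 by edgeR), with a median of 0.19. Aurora kinase A stabilises N-MYC, and the deubiquitinase USP28 stabilises c-MYC.

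Of 26 genes that MYC is known to activate, edgeR called 1 lower and none higher, and limma called 3 lower on both TPM scales (Ccnd2, Nme1 and Cdk4). By the adjusted p alone, 7 were lower and 2 higher, 17 did not pass, and the median was -0.29, beside 15.4% lower and 13.1% higher among all tested genes. These counts by adjusted p moved with the test and with single libraries. With DESeq2, 13 were lower and 2 higher, where 15.9% of all tested genes were lower and 13.1% higher. Without the expression filter the list had the same counts, where 13.6% of all tested genes were lower and 12.3% higher. Without PD800 replicate 1, 1 was lower and 0 higher, where 7.72% of all tested genes were lower, and without PD800 replicate 2, 1 was lower and 1 higher, where 7.91% were lower. Without PD100 replicate 1, 16 were lower and 2 higher, where 21.8% of all tested genes were lower and 20.9% higher, and without PD100 replicate 2, 12 were lower and 5 higher, where 21.9% were lower and 18.7% higher. The called gene was Ccnd2, the cyclin D2 gene, which went from 28.8 and 35.7 CPM in PD100 to 6.32 and 5.20 CPM in PD800 (-2.48, adjusted p = 0.000135 by edgeR). Of 6 genes that MYC is known to repress, 2 were also called lower and none higher, and the median was -0.71. The called genes were Cdkn1c, the p57 gene (-2.04, adjusted p = 9.22e-05 by edgeR), and Cdkn1a, the p21 gene (-1.45, adjusted p = 0.000145 by edgeR), both inhibitors of cyclin-dependent kinases. By the adjusted p alone, 4 of this list were lower and 1 higher. The higher gene, named after its value was seen, was Ndrg2 (0.80, adjusted p = 0.000875 by edgeR), which did not pass by limma on either TPM scale. The lists are small, and their medians are set only beside the 0.01 of all tested genes.

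**Figure D5:**
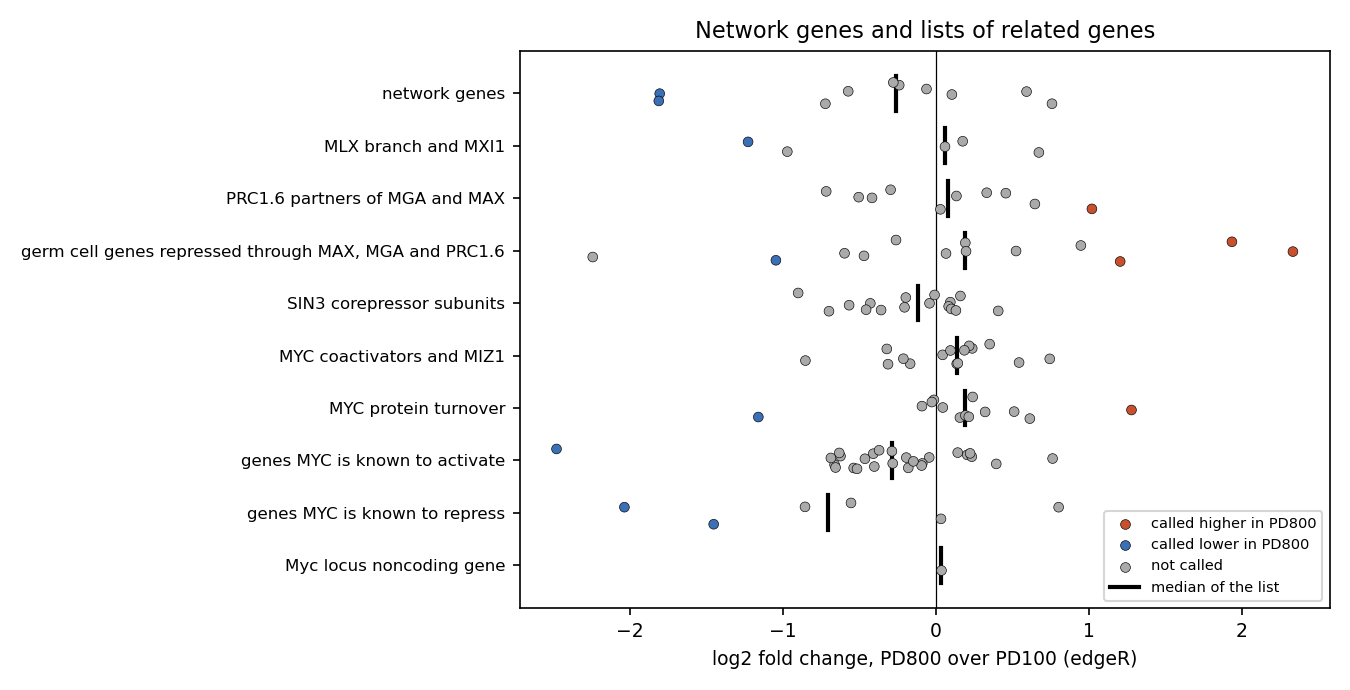
Log2 fold change, PD800 over PD100 by edgeR, of each network gene and each gene of the related lists (points, coloured by call), with the median of each list as a vertical bar. The genes that MYC is known to repress have the lowest median (-0.71), and the germ cell genes span from Dazl at 2.34 to Tex101 at -2.25, which did not pass the test.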

How the data were processed

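RNA-seq of DKO741 Terc-/- mESCs at PD100 and PD800 (2 libraries each) was analysed. The labels name total RNA, while the study speaks of mRNA sequencing, and their titles give doubling levels where their treatment text gives passages. Per the labels and methods, the authors used STAR 2.5.3a for alignment of the read pairs to mm10 and computed, per gene, RSEM 1.3.0 expected counts (reads shared between genes are divided), TPM and FPKM. The deposited FPKM values were not used, and the deposited TPM values, scaled for length and to 1 total per library, served for levels between genes. Annotation release and strand setting are not given in the sources used here. Of 53379 identifiers, 53274 matched GENCODE M21 (GRCm38, the assembly of mm10).

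The expected counts the authors deposited were rounded and tested by the quasi-likelihood method of edgeR 4.0.16 (R 4.3.3) with Benjamini-Hochberg adjustment, after TMM scaling and filterByExpr at a count of 10. Thresholds were an adjusted p under 0.01 and a fold over 2. Totals of 32454121 to 38492149 per library set the precision, and replicates varied more than counting gives (chi-square per degree of freedom 64.6 in PD100 and 9.89 in PD800, common dispersion 0.0136). The procedure was tested on simulated data. Alternatives were DESeq2 1.42.0, its size factors, upper-quartile factors, no filter, the replicate number as a block, limma 3.58.1 on log2(TPM + 1) and log2(TPM + 0.1), fixed transcript lengths for sums, and each library left out.

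The members and lists were chosen with earlier results of these data known. Named genes are the members, Mxi1, Mlxip, Mlxipl, Pvt1, and per list up to 2 called genes with the highest and the lowest fold change, or without calls the 2 with the highest mean CPM. Markers are named after their values were seen, as are Stag3, Mael, Tex101, Sin3b, Hdac2, Sap18, Epc1, Nme1, Cdk4 and Ndrg2.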

Additional observations from a re-analysis of the deposited data

How the results depend on the processing

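Over the 11 other ways of testing, Myc kept its direction and passed in all 11 (log2 fold change -1.96 to -1.73), as did Mxd4 (-2.00 to -0.74), Mycn passed in 9, Max in 8, Mnt in 7, Mxd3 in 5 and Mlx in 1. Of 110 recomputed log2 fold changes of members, 93 kept direction and side of the threshold. Of 66 recomputed counts of members or genes, 52 stayed within 1.5 times of the value in the report. Mxd3 passed with upper-quartile factors (0.61, adjusted p = 0.00991), without the expression filter (0.59, adjusted p = 0.00135) and with the replicate block (0.59, adjusted p = 0.00289), all by edgeR. Under each of these settings 2 members were higher by adjusted p. Of all tested genes, 13.6%, 12.3% and 20.1% were higher, in the same order. Limma on log2(TPM + 1) gave 297 genes called higher and 920 lower (24.4% of calls higher, against 41.6% of 1202 and 1686 by edgeR), Max at 0.48, Mnt at -0.59, 0 members higher by adjusted p and 1 member called lower, Myc, and Mga reversed to -0.18. On log2(TPM + 0.1) it gave 533 called higher and 1779 lower (23.1% higher), Max at 0.49, Mnt at -0.93, 0 members higher, and Mga at -0.18. By adjusted p, 3.72% and 3.69% of all tested genes were higher on these scales. The median of all genes shifted to -0.12 and -0.21 on these scales, and measured from it Max lay at 0.59 and 0.71. With fixed transcript lengths, the mean Myc share of the MYC family in PD100 was 24.5% in place of 24.3%.

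Without each library in turn, log2 fold changes ranged from 0.52 to 0.66 for Mxd3, -0.46 to -0.091 for Mlx and -0.38 to -0.11 for Mycl. Those of Mycn ranged from -0.78 to -0.68, of Max from 0.72 to 0.79 and of Mnt from -0.59 to -0.57. In these fits the counts of members past the adjusted p moved, as did the shares of all tested genes. The lone library of a group was then assumed to vary like the other group. Counts of called genes in the pathway lists, recomputed after seeing the data, were within 1.5 times in 181 of 198 cases.

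Replicate numbers are shared by the groups, but nothing says that they mark a batch. Deviations of same-numbered libraries correlated at 0.388, and with the number as a block 1461 genes were called higher and 1956 lower. Apart from Mxd3, the block changed no member's side of the threshold. In the lists it gave 12 lower among the genes MYC is known to activate (7 without it) and 6 lower and 1 higher among the SIN3 subunits (3 and 0 without it), where 21.5% of all genes were lower and 20.1% higher, and it called Tex101 lower (adjusted p = 0.00378 by edgeR). With 2 libraries a group, rules for single outlying samples cannot be applied, and causes of these changes were not tested.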
